A study of Mus musculus with 6 samples.

Results

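RIKEN-named genes are mouse genes that still carry the name of the cDNA clone in which they were found, a code that ends in Rik. Of 2221 such genes in the table of 31763 genes, the 244 whose counts summed to at least 1000 over the 6 libraries are described here, and the other 1977 lie below that sum. The tissue was the medial prefrontal cortex (mPFC), which serves the recall of memories tied to a drug, and it came from mice after conditioned place preference (CPP), in which an animal learns to link a chamber with a drug. The 3 morphine samples came from mice injected with morphine (10 mg/kg, i.p.) during training, and the 3 saline samples came from mice given 10 ml/kg of saline by the same route. Tissue was taken after the retrieval test that followed a drug-free home cage period. All were male C57BL/6J mice of 8 to 10 weeks with no other genetic change. RNA depleted of rRNA was made into strand-directional libraries. The labels do not say whether a sample was a single mouse, so the p-values measure only the spread between these samples.

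Total counts were 17984153 to 23529592 in the morphine libraries and 19543377 to 22776251 in the saline libraries, of which the 244 genes took 1.34% to 1.36% and 1.36% to 1.38%. Markers of cortical excitatory neurons were present in every library, with summed levels of 1861 to 1983 CPM (counts scaled by library size and TMM factors) in morphine and 1658 to 1842 CPM in saline. Saline sample 1 stood apart from the rest. Of 17 olfactory bulb markers, 16 were more than 2 times as high there as in the highest other library, and no marker on the list was at 0 in every library. Their summed level was 320 to 353 CPM in morphine and 307 to 1017 CPM in saline, with the 1017 CPM in saline sample 1. For named genes of the group whose call that library changed, and for many others, values below are also given without it. Summed striatum markers were 106 to 111 CPM in morphine and 81.4 to 97.9 CPM in saline, without overlap, and 1 of these 5 markers was higher at an unadjusted p under 0.05. The part that these tissue differences play in the results was not tested. In bulk tissue, fewer cells of a type and less RNA per cell cannot be told apart.

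The RIKEN collection was built by sequencing full-length cDNAs from many mouse tissues and stages, and the characters that open a clone name mark its library. Many clones have since been given a function and a new symbol, while others are long non-coding RNAs (lncRNAs) or stretches with no known product. A gene in this group is therefore defined by its naming history and not by a shared function. In RefSeq, 202 of the 244 had an entry, 25 of them under another symbol. The GENCODE annotation of GRCm38 matched 242 of the 244 and called 120 of them protein-coding, 36 lincRNA, 32 TEC, 22 processed transcript and 19 antisense, with the rest in smaller classes. TEC is the GENCODE class for transcripts, mostly with a single exon, whose coding status still awaits an experiment. A lincRNA lies between protein-coding genes, an antisense RNA overlaps one on the other strand, and a processed transcript is spliced but has no open reading frame. Only 1 of the 32 TEC genes had a RefSeq entry, against 118 of the 120 protein-coding ones.

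Across the 244 genes, differences between morphine and saline mPFC were small, and more of them pointed to lower counts in morphine. No gene of the 244 passed an adjusted p under 0.05 in edgeR's quasi-likelihood test with Benjamini-Hochberg adjustment over the 18970 genes tested, and none of the 18970 did (0%). DESeq2 called 0 of the 244 and 16 of all genes. At an unadjusted p under 0.05 in edgeR, 24 of the 244 (9.84%) were lower in morphine, against 4.96% of all tested genes and 4.36% of the 10732 with a summed count of at least 1000. Another 7 (2.87%) were higher, against 2.77% and 3.25%. The lower share was above this background, which mixes classes of gene. Beside other genes of the same class and count, the shares lay on both sides. Of the TEC genes of the group 34.4% were lower, against 31.5%. For lincRNAs it was 13.9% against 14.5%, for processed transcripts 18.2% against 18.8% and for antisense genes 5.26% against 0%. Of the protein-coding ones 1.67% were lower, against 3.42%. Over all non-coding genes it was 18% against 22.9%, but TEC genes were 32 of these 122 and 260 of the 436 others. DESeq2 gave 20 lower and 6 higher, counts that stand without their shares over all genes. Requiring also a fold change over 1.5 left 2 of the 244, against 2.38% of all tested genes and 0.354% of those with a summed count of at least 1000. Every morphine library lay below every saline library for 27 of the 244 (11.1%), against 7.32% of all tested genes and 6.7% of those with that sum. Every morphine library lay above for 8 (3.28%), against 5.98% and 7.04%. The median log2 fold change of morphine over saline was -0.03 over the 244 genes, -0.01 over all tested genes and -0.04 over the 840 tested RIKEN-named genes below 1000. Log2 fold changes ranged between -0.75 and 0.40, and for 132 genes they were under 0.10 in size. For 218 genes the 95% interval lay within a fold change of 1.5 in either direction.

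The number of genes that stood out changed with the libraries included. Without saline sample 1, 46 of the 244 were lower and 11 higher by the same unadjusted limit, against 7.53% and 4.14% of the 18671 genes tested in that fit. In that fit 10 of the 244 passed an adjusted p under 0.05 in edgeR, against 0.996% of all genes. Without morphine sample 2 there were 39 lower and 12 higher, without morphine sample 1 there were 12 and 2, and without morphine sample 3 there were 12 and 4. Without saline sample 2, 21 were lower and 12 higher, and without saline sample 3, 20 were lower and 5 higher. Apart from the fit without saline sample 1, these counts stand without the shares over all genes. Whether they reflect the group or all genes in those fits is therefore not shown. Of the 31 genes named by the fit of all libraries, 12 kept an unadjusted p under 0.05 in every alternative run, 10 of them lower and 2 higher in morphine. Other methods on all libraries also lost some genes described below. A130050O07Rik, B430305J03Rik, 4933427D14Rik and C030015E24Rik missed that limit with DESeq2. C130089K02Rik, E130307A14Rik, 5330434G04Rik, B230216N24Rik and C030015E24Rik missed it in each limma fit. 4933427D14Rik also missed it with no filter and with the replicate block. Lower by the same limit but not described below were 1500004A13Rik, 2610035D17Rik and A930017M01Rik, with log2 fold changes of -0.12, -0.22 and -0.24. 1500004A13Rik and 2610035D17Rik missed the limit with DESeq2, with no filter and with the replicate block, and 1500004A13Rik also in each limma fit. A930017M01Rik missed it without morphine sample 1, morphine sample 3 or saline sample 3.

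Values are given next by class of gene, beside other genes of the same class and count. Protein-coding RIKEN genes had a median log2 fold change of 0.01, with 4 of 120 higher and 2 lower by the unadjusted limit, and the 10048 other protein-coding genes of that count had 0.01, with 3.19% higher and 3.42% lower. All 120 of them had an interval within a fold change of 1.5. Among the 122 non-coding genes, 3 were higher and 22 lower, and the median was -0.08. The other non-coding genes of that count had a median of -0.19, with 4.82% higher and 22.9% lower. TEC genes were 260 of these 436, against 32 of the 122. The 36 lincRNAs had a median of -0.06 with 5 lower (13.9%), against -0.10 and 14.5% for the 62 other lincRNAs. The 22 processed transcripts had a median of -0.06 with 4 lower (18.2%) and 2 higher, against -0.07, 18.8% and 0 for the 32 others. For both classes the lower shares were near those of the other genes. The 19 antisense genes were centred on -0.00, with 1 higher and 1 lower. The 37 other antisense genes of that count were at 0.24, with 45.9% of them higher. No difference between these classes was tested.

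**Figure D1:**
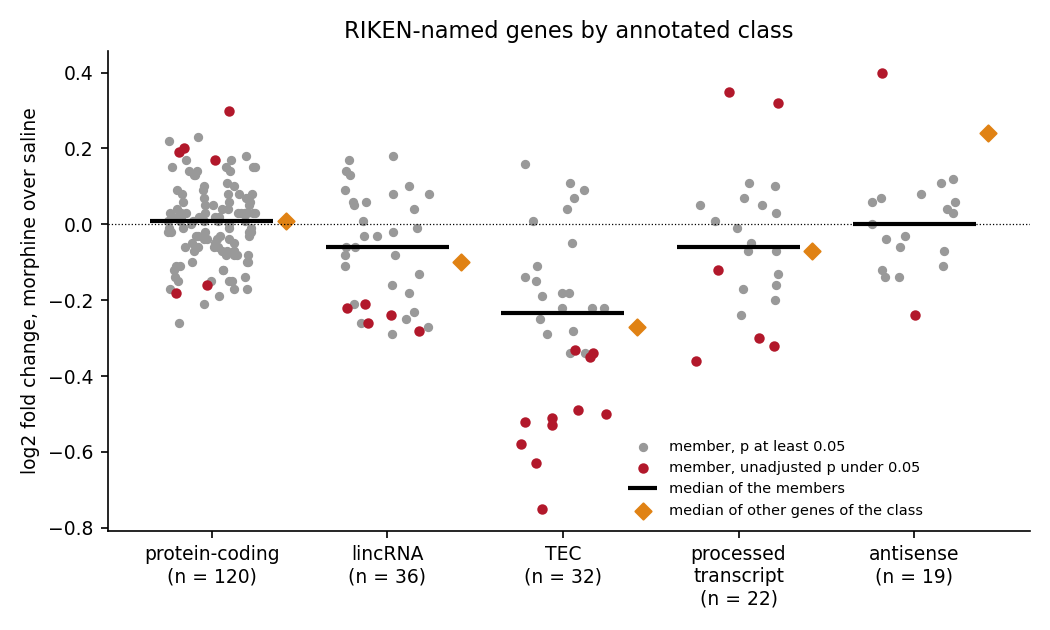
Log2 fold change of morphine over saline for the RIKEN-named genes with summed counts of at least 1000, by GENCODE class. Each dot is a gene, red at an unadjusted edgeR p under 0.05, the bar is the median of the class and the diamond the median of the other genes of that class and count. TEC genes sit lowest, with medians of -0.24 for the RIKEN-named and -0.27 for the other TEC genes.

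The 32 TEC genes were the lowest group. Their median log2 fold change was -0.24, and 26 of the 32 were below 0, against 237 of the 260 other TEC genes with that summed count. At an unadjusted p under 0.05, 11 of the 32 were lower in morphine, or 34.4%, against 31.5% of the 260. None was higher, against 0.385%. Every morphine library lay below every saline library for 6 of the 32, against 20.4%. These shares were near those of the class as a whole. All 32 were a single exon block. Of these, 22 lay within a protein-coding gene of the same strand without touching its exons, 3 overlapped a gene of the opposite strand and 7 lay outside any protein-coding gene. For the 22, reads from unspliced RNA of the surrounding gene cannot be told apart from reads of the site itself.

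Both genes past a fold change of 1.5 were TEC genes. C030015E24Rik (chr5:48997712-48998539, minus strand), in an intron of the potassium channel-interacting gene Kcnip4, had 7.58, 9.60 and 6.41 CPM in morphine, against 6.60, 15.1 and 18.1 CPM in saline. Saline sample 1 was within the morphine range and the other saline libraries were above it. Its log2 fold change was -0.75 ± 0.31 (SE, unadjusted p = 0.0335, adjusted p = 0.619 in edgeR). Without saline sample 1 it was -1.09 ± 0.14, with an adjusted p of 0.000489 in edgeR. The unadjusted p was above 0.05 with DESeq2, with each limma fit and without morphine sample 1, morphine sample 3, saline sample 2 or saline sample 3, where log2 fold changes were -0.73, -0.62, -0.65 and -0.46. Kcnip4 itself averaged 70.4 ± 1.96 CPM in morphine and 67.9 ± 8.76 CPM in saline (SD, n = 3 each). Another TEC gene in Kcnip4, 2900064K03Rik, had a log2 fold change of -0.22 in all libraries, with an interval between -0.78 and 0.33. Without saline sample 1 it was at -0.51, with an adjusted p of 0.0108 in edgeR.

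5430434F05Rik (chr6:83417440-83420992, minus strand) lies inside Tet3, which encodes an enzyme that oxidises methylated cytosine. It had 6.53, 7.34 and 6.36 CPM in morphine, against 7.94, 10.3 and 13.1 CPM in saline, so the groups did not overlap. The log2 fold change was -0.63 ± 0.18 (SE, unadjusted p = 0.00499, adjusted p = 0.575 in edgeR), and -0.80 ± 0.14 without saline sample 1, where its adjusted p was 0.00633. Tet3 averaged 140 ± 11.2 CPM in morphine and 152 ± 1.61 CPM in saline (SD, n = 3 each), a log2 fold change of -0.11 (unadjusted p = 0.088 in edgeR).

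D130019J16Rik (chr1:137935189-137937346, plus strand) had the lowest p of the 244 genes, and no protein-coding gene lies over it. It had 8.90, 11.1 and 9.09 CPM in morphine, against 15.5, 13.1 and 12.6 CPM in saline. Every morphine library was below every saline library, with a log2 fold change of -0.51 ± 0.13 (SE, unadjusted p = 0.00261, adjusted p = 0.573 in edgeR). A130050O07Rik, another TEC gene of the same strand that ends upstream of it, also did not overlap between groups, with a log2 fold change of -0.33 ± 0.14 (SE, unadjusted p = 0.036 in edgeR). Its p missed 0.05 without morphine sample 1 or 2 or saline sample 2 or 3, at -0.32, -0.29, -0.24 and -0.31. The nearest protein-coding gene of either is Ptprc, which encodes the leukocyte protein CD45.

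Further sites lie in genes of neuronal signalling and cytoskeleton. C630044B11Rik, in Ntrk2, the gene of the BDNF receptor TrkB, had 6.97, 7.56 and 8.74 CPM in morphine, against 9.83, 10.1 and 13.9 CPM in saline. 2700078F05Rik, in the actin regulator gene Enah, had 7.63, 10.5 and 8.79 CPM in morphine, against 13.7, 13.1 and 10.9 CPM in saline. 5330431K02Rik, in the microtubule-associated protein gene Map1b, had 10.6, 13.5 and 10.8 CPM in morphine, against 12.9, 18.7 and 17.5 CPM in saline. The groups did not overlap for the sites in Ntrk2 and Enah, while for the site in Map1b morphine sample 2 was above saline sample 1. Their log2 fold changes were -0.53, -0.49 and -0.50, with unadjusted edgeR p of 0.00712, 0.00602 and 0.00873. Without saline sample 3, C630044B11Rik was at -0.35. Without saline sample 1, C630044B11Rik was at -0.62 and 5330431K02Rik at -0.64, with adjusted edgeR p of 0.0439 and 0.00744. Ntrk2, Enah and Map1b had log2 fold changes of 0.01, -0.04 and 0.06, with unadjusted p of 0.809, 0.463 and 0.356.

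The remaining TEC genes named by the fit were 5330406M23Rik outside any protein-coding gene, B230112I24Rik in Cntnap2, C230086J09Rik in Pcdh9 and C130089K02Rik in Maml3, with log2 fold changes of -0.58, -0.35, -0.34 and -0.52. The p of B230112I24Rik missed 0.05 without saline sample 3 (-0.29). That of C230086J09Rik missed it without morphine sample 1 (-0.24), morphine sample 3 (-0.30), saline sample 2 (-0.31) or saline sample 3 (-0.26). Without saline sample 1, 5330406M23Rik was at -0.72 and C230086J09Rik at -0.43, with adjusted edgeR p of 0.0113 and 0.0314. For C130089K02Rik saline sample 1 was the highest library, 1.58 times the next. It had 7.47, 8.61 and 6.02 CPM in morphine, against 14.2, 8.96 and 8.28 CPM in saline. Morphine sample 2 was above saline sample 3. This gave a log2 fold change of -0.24 without saline sample 1, and its unadjusted p of 0.0343 in edgeR then no longer passed 0.05, nor did it without morphine sample 1 (-0.53) or morphine sample 3 (-0.39).

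The protein-coding genes around these sites had values closer to 0. The 22 TEC genes inside a same-strand gene had a median log2 fold change of -0.29, and the 20 genes they lie in had -0.00, ranging between -0.34 and 0.06. None of the 20 passed an unadjusted p under 0.05 in either direction in edgeR, and 18 of the 22 TEC genes had a lower value than the gene they lie in. For the 8 of them that were lower at an unadjusted p under 0.05, the medians were -0.51 for the TEC genes and 0.02 for the genes around them. The difference between a site and its surrounding gene was not tested, and the counts of a site may include unspliced RNA of that gene.

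**Figure D2:**
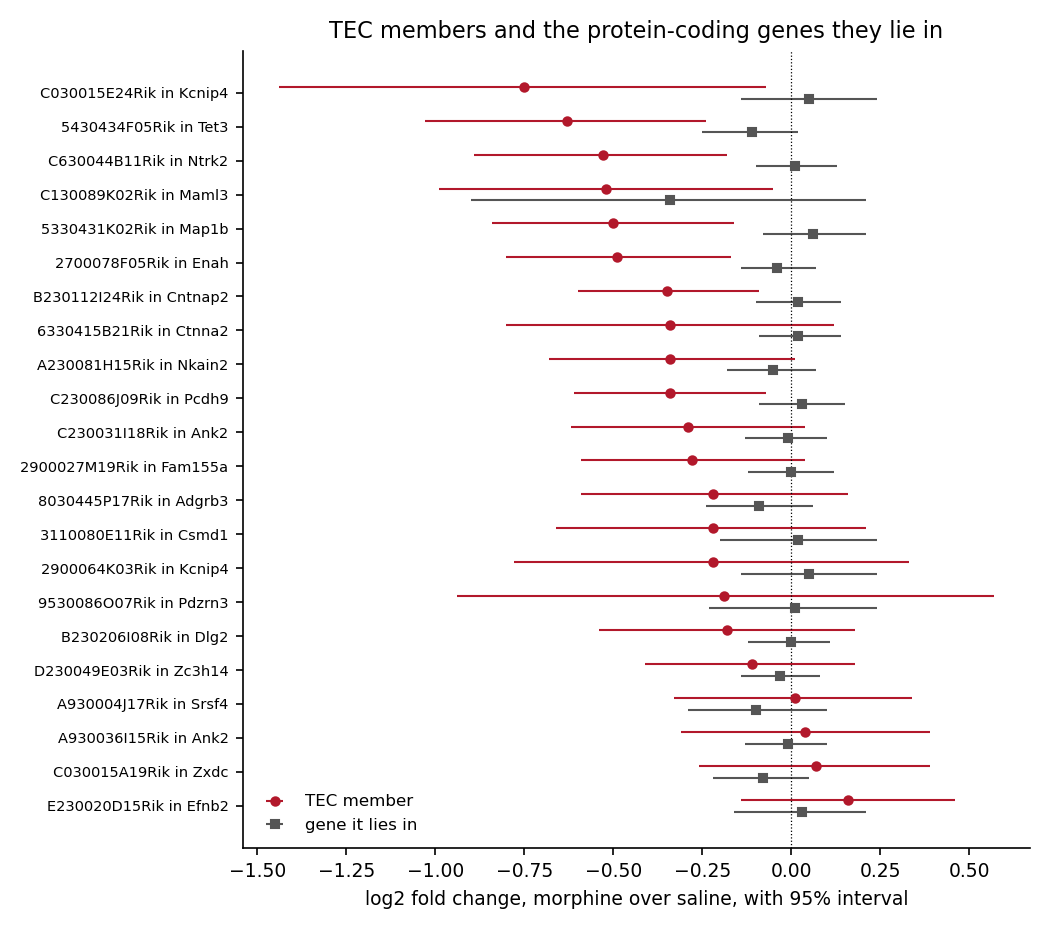
Log2 fold change of morphine over saline with its 95% interval for 22 TEC genes (circles) and for the protein-coding gene each lies in on the same strand (squares). The circles spread between -0.75 and 0.16, while the squares lie between -0.34 and 0.06.

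By library, the TEC genes did not follow the groups alone. Relative to the mean of the 6 libraries, their median log2 level was -0.24, 0.10 and -0.28 in morphine samples 1 to 3, against -0.14, 0.16 and 0.24 in saline samples 1 to 3. Morphine sample 2 was above saline sample 1, so the groups overlapped. The 260 other TEC genes had -0.18, 0.04 and -0.30 in morphine, against -0.12, 0.17 and 0.27 in saline, the same order of libraries. The protein-coding RIKEN genes stayed between -0.02 and 0.02 in every library. Saline sample 3 was the highest library for 16 of the 32 TEC genes, and morphine sample 3 the lowest for 14. Without saline sample 1, 22 of the 32 were lower at an unadjusted p under 0.05 in edgeR, against 72.3% of the other TEC genes, 26.9% of which passed an adjusted p under 0.05. What sets the order of the libraries was not tested.

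**Figure D3:**
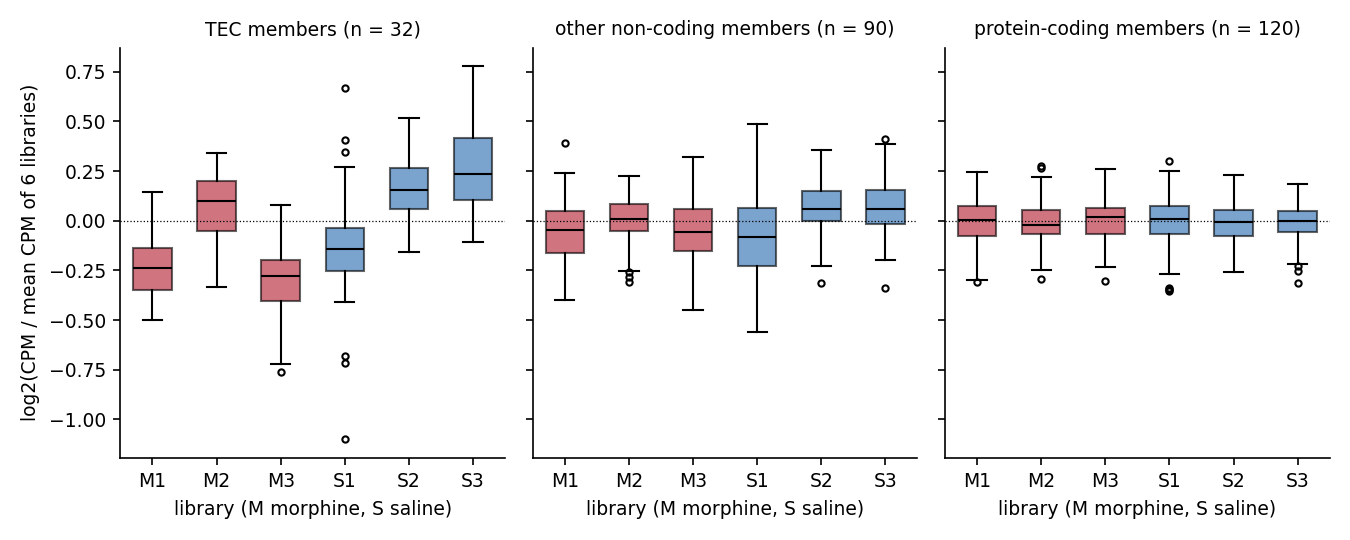
Level of each gene relative to its mean over the 6 libraries (log2 of the CPM ratio), as boxes per library for TEC, other non-coding and protein-coding RIKEN genes. M1 to M3 are morphine and S1 to S3 saline libraries, boxes span the quartiles, lines the medians, whiskers reach to 1.5 times the quartile range and circles are genes beyond. The TEC boxes shift by library, with medians between -0.28 and 0.24, and the protein-coding boxes do not.

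In the group, 11 genes hold microRNA hairpins on their own strand, which makes them host transcripts. A microRNA is cut from a hairpin in a longer primary transcript and finds its targets mainly through the seed, bases 2 to 8 from its 5′ end. The mature microRNAs were not measured by these libraries. A selection from the 5 hosts with the lowest values is shown from RefSeq (GRCm38.p6), 5′ to 3′ with the seed in capitals. The miR-344 sequences are those with the seeds GUCAGGC and GAUCUAG, which occur in both miR-344 hosts, and the others show what else these hosts carry, without a seed shared between hosts.
mmu-miR-344-5p: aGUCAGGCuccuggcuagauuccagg
mmu-miR-344b-5p: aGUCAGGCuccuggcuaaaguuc
mmu-miR-344c-5p: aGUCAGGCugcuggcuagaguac
mmu-miR-344d-3-5p: aGUCAGGCuagugguuauacucc
mmu-miR-344-3p: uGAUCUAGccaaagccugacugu
mmu-miR-344c-3p: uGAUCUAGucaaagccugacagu
mmu-miR-9-5p: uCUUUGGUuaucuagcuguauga
mmu-miR-9-3p: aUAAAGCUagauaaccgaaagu
mmu-miR-325-3p: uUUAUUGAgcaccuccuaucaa
mmu-miR-29b-3p: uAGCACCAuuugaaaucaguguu
mmu-miR-29c-3p: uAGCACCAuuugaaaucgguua
The miR-344 sequences come from A230057D06Rik and A330076H08Rik, miR-9 from C130071C03Rik, miR-325 from 5330434G04Rik and miR-29 from A330023F24Rik.

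The 7 non-coding hosts all had log2 fold changes below 0, with a median of -0.24, and 4 of them were lower at an unadjusted p under 0.05. These 7 are lincRNAs or processed transcripts. Among the 62 other lincRNAs with a summed count of at least 1000, 40 were below 0 and 14.5% were lower by that limit. Among the 32 other processed transcripts, 25 were below 0 and 18.8% were lower. The 436 other non-coding genes, 260 of them TEC, had 343 below 0 and 22.9% lower. Of all tested genes, 4.96% were lower. The 4 protein-coding hosts had a median of -0.01, and none had an unadjusted p under 0.05 in edgeR. The 83 other non-coding genes of the group, TEC genes left out, had a median of -0.03, with 7 lower. These hosts were picked out after their values had been seen, and no test was made of them as a set. By library, the median of the 7 was -0.16, 0.06 and -0.33 in morphine samples 1 to 3, against 0.11, 0.12 and 0.16 in saline samples 1 to 3.

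A330076H08Rik (chr7:61930137-61982358, minus strand) holds 1 miR-344 hairpin and had 34.8, 38.1 and 29.6 CPM in morphine, against 42.2, 39.9 and 44.3 CPM in saline. A230057D06Rik (chr7:61704519-61928690, minus strand), the next gene along, holds 7 miR-344 hairpins and had 53.5, 63.1 and 48.3 CPM in morphine, against 65.5, 66.0 and 67.8 CPM in saline. For both, every morphine library was below every saline library. Their log2 fold changes were -0.30 ± 0.09 and -0.28 ± 0.09 (SE), with unadjusted edgeR p of 0.0083 and 0.0102 and adjusted p of 0.59 and 0.598. The seed GUCAGGC is shared by 4 mature miR-344 sequences of these hosts, and GAUCUAG by 2.

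C130071C03Rik (chr13:83721381-83884194, plus strand), a lncRNA downstream of the neuronal transcription factor gene Mef2c, holds the hairpin of miR-9, a microRNA of neural progenitors and neurons. It had 77.8, 77.7 and 74.8 CPM in morphine, against 100, 82.1 and 83.3 CPM in saline. Every morphine library was below saline, where sample 1 was the highest. On the log2 scale, the fold change was -0.21 ± 0.08 (SE, unadjusted p = 0.022, adjusted p = 0.616 in edgeR), and -0.11 without saline sample 1, where its p missed 0.05, as it did without morphine sample 3 (-0.19). Mef2c averaged 1121 ± 62.3 CPM in morphine and 1068 ± 92.4 CPM in saline (SD, 3 libraries each), with a log2 fold change of 0.07 (unadjusted p = 0.361 in edgeR).

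5330434G04Rik (chrX:105348282-105391776, minus strand), the host of miR-325, had 46.5, 55.1 and 41.0 CPM in morphine, against 59.3, 53.8 and 55.5 CPM in saline. Morphine sample 2 was above saline sample 2, and the log2 fold change was -0.24 ± 0.10 (SE, unadjusted p = 0.0303, adjusted p = 0.618 in edgeR). Its p missed 0.05 without morphine sample 1 (-0.23), morphine sample 3 (-0.15) or saline sample 3 (-0.25), and without morphine sample 2 the value was -0.36. A330023F24Rik (chr1:194976375-195037904, plus strand), which holds the miR-29b and miR-29c hairpins, had 118, 142 and 105 CPM in morphine, against 116, 153 and 162 CPM in saline. Saline sample 1 lay among the morphine libraries. Morphine over saline, the log2 fold change was -0.24 ± 0.13 (SE, unadjusted p = 0.0902 in edgeR), and -0.37 ± 0.08 with an adjusted p of 0.0221 without saline sample 1. It was -0.37 without morphine sample 2, with an unadjusted p under 0.05, and -0.14 without either morphine sample 3 or saline sample 3. Exons of A330023F24Rik overlap those of Cd46 on the opposite strand by 1079 bp. Cd46 averaged 15.4 ± 2.6 CPM in morphine and 19.2 ± 1.27 CPM in saline (SD, n = 3 each). That was a log2 fold change of -0.32 (unadjusted p = 0.028 in edgeR). How strand was set in the counting is unknown here, so reads there cannot be told apart.

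More non-coding hosts had values nearer 0. 3110039I08Rik (Mir100hg in RefSeq), whose span holds the hairpins of miR-100, let-7a and miR-125b, had a log2 fold change of -0.16 ± 0.10 (SE, unadjusted p = 0.144 in edgeR), and -0.29 without morphine sample 2 and -0.24 without saline sample 1, where its unadjusted p passed 0.05. 6720427I07Rik, with the hairpins of let-7d, let-7f and let-7a, had 14.3, 14.6 and 14.5 CPM in morphine, against 14.9, 16.5 and 13.9 CPM in saline. Its log2 fold change was -0.06, with an interval between -0.28 and 0.16. Among protein-coding hosts, 2010111I01Rik (Aopep), which holds the miR-23b, miR-27b and miR-24 hairpins, had a log2 fold change of -0.02, with an interval between -0.26 and 0.22. It was at -0.12 without saline sample 1 and at 0.05 without saline sample 2.

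**Figure D4:**
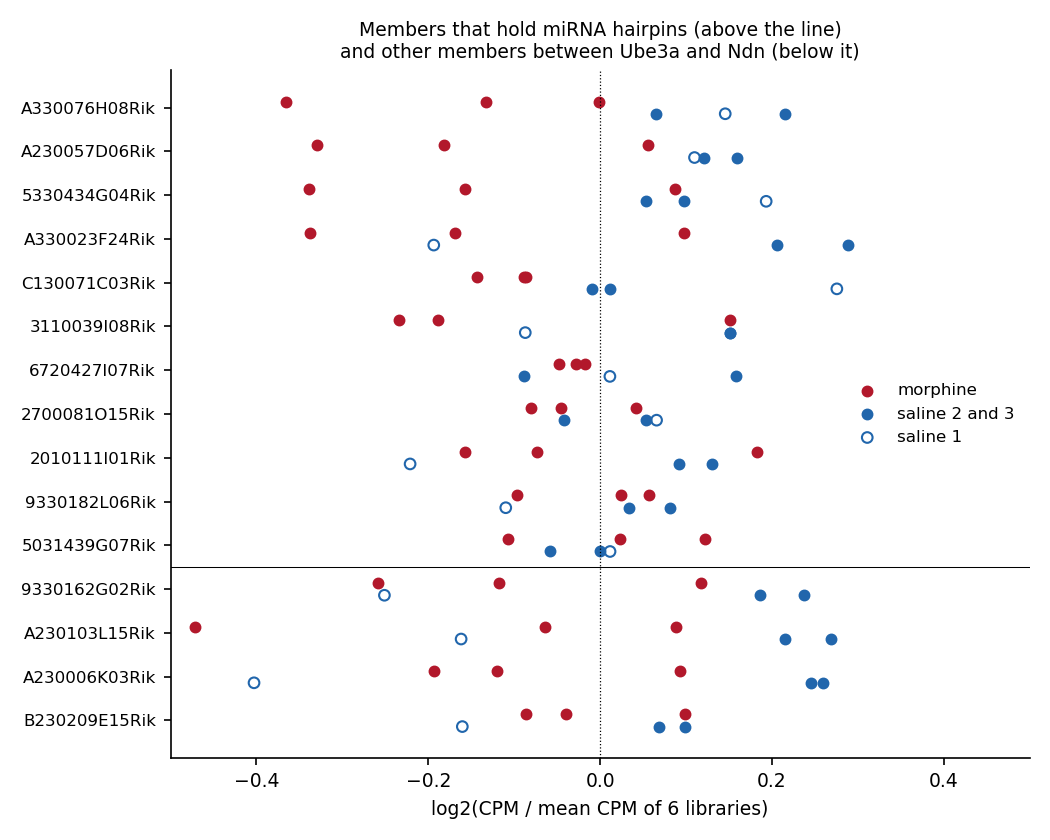
CPM of each library relative to the mean of the 6 libraries (log2) for the 11 genes that hold microRNA hairpins, above the line, and for 4 other RIKEN genes between Ube3a and Ndn on chromosome 7, below it. Morphine libraries are red and saline libraries blue, with saline sample 1 as an open circle. The 3 saline libraries lie right of all morphine libraries for A330076H08Rik, A230057D06Rik and C130071C03Rik.

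The 2 miR-344 hosts belong to a group of 6 RIKEN genes between Ube3a and Ndn (chr7:59228750-62350262), the mouse counterpart of the Prader-Willi and Angelman interval. In this imprinted interval, brain cells transcribe long non-coding RNA from the paternal chromosome, part of it antisense to the ubiquitin ligase gene Ube3a. All 6 lie on the minus strand and had log2 fold changes below 0, as did 9968 of the 18970 tested genes. The 6 are TEC genes, lincRNAs or a processed transcript. Among other genes with a summed count of at least 1000, 237 of 260 TEC genes were below 0. So were 40 of 62 lincRNAs and 25 of 32 processed transcripts. The 6 were picked out after their values had been seen. 9330162G02Rik, a TEC gene that runs across the start of Ube3a on the opposite strand, had 226, 266 and 205 CPM in morphine, against 206, 279 and 289 CPM in saline. The log2 fold change was -0.15 ± 0.13 (SE, unadjusted p = 0.249 in edgeR), and -0.29 ± 0.07 with an adjusted p of 0.0485 without saline sample 1. It was -0.07 without morphine sample 3, -0.09 without saline sample 2 and -0.06 without saline sample 3. A230103L15Rik, A230006K03Rik and B230209E15Rik had -0.25, -0.13 and -0.01, with unadjusted p of 0.119, 0.442 and 0.875. B230209E15Rik was at -0.09 without saline sample 1. It was above 0 without morphine sample 3 (0.03), saline sample 2 (0.02) or saline sample 3 (0.04). Without saline sample 1, A230103L15Rik and A230006K03Rik were at -0.38 and -0.32 with an unadjusted p under 0.05, and A230103L15Rik was also at -0.38 without morphine sample 2. In each of these 4 genes saline sample 1 was below saline samples 2 and 3. Ube3a averaged 319 ± 6.83 CPM in morphine and 318 ± 15.4 CPM in saline (SD, n = 3 each), and Ndn, which encodes necdin, averaged 74.2 ± 5.7 CPM in morphine and 71.3 ± 5.93 CPM in saline.

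Some lower genes start close to a protein-coding gene on the opposite strand. 5031425E22Rik (chr5:23382308-23434269, minus strand) starts 172 bp from Kmt2e on the opposite strand, a gene whose protein binds methylated histone H3. It had 26.3, 30.8 and 27.6 CPM in morphine, against 33.1, 34.5 and 34.0 CPM in saline, without overlap. This gave a log2 fold change of -0.26 ± 0.08 (SE, unadjusted p = 0.00714, adjusted p = 0.588 in edgeR). Kmt2e averaged 141 ± 3.72 CPM in morphine and 155 ± 7.72 CPM in saline (SD, n = 3 each), a log2 fold change of -0.14 (unadjusted p = 0.0288 in edgeR). E130307A14Rik, which starts 111 bp from Rev3l, the gene of the catalytic subunit of DNA polymerase zeta, had a log2 fold change of -0.24 (unadjusted p = 0.03 in edgeR). Rev3l had -0.30 (unadjusted p = 0.0266 in edgeR). It averaged 96.7 ± 2.48 CPM in morphine and 119 ± 24.1 CPM in saline (SD, n = 3 each), so its saline libraries were uneven. The p of E130307A14Rik missed 0.05 without morphine sample 1 (-0.19), morphine sample 3 (-0.21) or saline sample 1 (-0.16). Of 57 RIKEN genes that start within 1000 bp of a protein-coding gene on the opposite strand, 54 had a tested partner, with medians of -0.04 for the RIKEN genes and 0.02 for the partners. Of the 53 partners, 3 were lower and 4 higher at an unadjusted edgeR p under 0.05, against 4.96% and 2.77% of all tested genes.

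1810026B05Rik (chr7:73539203-73558395, minus strand) is Chaserr, an lncRNA upstream of the chromatin remodeller gene Chd2, whose expression it limits in mouse. It had 26.4, 34.0 and 28.8 CPM in morphine, against 40.4, 34.6 and 36.1 CPM in saline. No library overlapped between groups, although morphine sample 2 and saline sample 2 were close. On the log2 scale, the fold change was -0.32 ± 0.10 (SE, unadjusted p = 0.00968, adjusted p = 0.595 in edgeR). Chd2 averaged 99.5 ± 4.47 CPM in morphine and 109 ± 2.67 CPM in saline (SD, n = 3 each), a log2 fold change of -0.13 (unadjusted p = 0.0354 in edgeR). The annotated exons of Chaserr and Chd2 overlap by 2628 bp on the same strand, so reads there cannot be told apart.

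B230216N24Rik, a processed transcript whose exons share 188 bp with the peptide-amidating enzyme gene Pam on the same strand, had 19.4, 20.5 and 17.8 CPM in morphine, against 17.9, 27.1 and 29.3 CPM in saline. Saline sample 1 lay with the morphine libraries. Morphine over saline, the log2 fold change was -0.36 ± 0.16 (SE, unadjusted p = 0.0459 in edgeR), and -0.55 ± 0.09 with an adjusted p of 0.00301 without saline sample 1. The unadjusted p missed 0.05 with RLE factors, in each limma fit and without any other single library, where log2 fold changes were between -0.41 and -0.22. Pam had a log2 fold change of 0.02.

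The 7 genes that were higher in morphine at an unadjusted p under 0.05 included several that overlap another gene. Exons of 4 of the 7 lie over exons of a protein-coding gene on the opposite strand, against 69 of all 244 and 2 of the 24 lower genes, and these shares were not tested. The libraries keep the strand, but how strand was set when reads were counted is unknown here, so the reads of such pairs cannot be told apart. 9530082P21Rik (chr17:23743234-23754065, plus strand), antisense to the zinc finger gene Flywch1, had 10.5, 11.7 and 12.8 CPM in morphine, against 8.11, 9.38 and 8.99 CPM in saline. Every morphine library was above every saline library. The log2 fold change was 0.40 ± 0.12 (SE, unadjusted p = 0.00703, adjusted p = 0.588 in edgeR), and Flywch1 had 0.11 ± 0.07 (unadjusted p = 0.119).

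B430305J03Rik has all 3702 bp of its exon within exons of Rap2b, a small GTPase gene. It had 11.8, 10.2 and 12.5 CPM in morphine, against 9.06, 9.71 and 9.35 CPM in saline. Its log2 fold change was 0.30 ± 0.12 (SE, unadjusted p = 0.0281 in edgeR), and that of Rap2b was 0.15 ± 0.06 (unadjusted p = 0.0208). The p of B430305J03Rik missed 0.05 without morphine sample 1 (0.28), morphine sample 3 (0.23) or saline sample 3 (0.30). 4932441J04Rik, opposite the protocadherin gene Pcdh7, had 22.2, 19.4 and 22.9 CPM in morphine, against 14.4, 19.3 and 18.0 CPM in saline. Morphine sample 2 and saline sample 2 were nearly equal though the groups did not overlap, and the log2 fold change was 0.32 ± 0.12 (SE, unadjusted p = 0.0227 in edgeR), beside 0.16 ± 0.09 for Pcdh7. The value was 0.21 without saline sample 1, and the p missed 0.05 without morphine sample 1 (0.30) or morphine sample 3 (0.27). 1700101I11Rik, opposite the autophagy gene Gabarapl1, had 13.7, 11 and 10.5 CPM in morphine, against 8.54, 10.7 and 8.28 CPM in saline. Morphine sample 3 was below saline sample 2, and the log2 fold change was 0.35 ± 0.14 (SE, unadjusted p = 0.0355 in edgeR), and its p missed 0.05 without morphine sample 1 (0.23) or saline sample 3 (0.29).

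The other 3 higher genes, like B430305J03Rik, are annotated as protein-coding. D630045J12Rik, the mouse Kiaa1549 gene, had 176, 171 and 177 CPM in morphine, against 137, 165 and 156 CPM in saline. E330009J07Rik, which RefSeq names Dennd11 for its DENN domain, had 167, 157 and 160 CPM in morphine, against 133, 150 and 147 CPM in saline. 1700066M21Rik had 41.0, 36.9 and 39.9 CPM in morphine, against 34.0, 33.8 and 35.6 CPM in saline. The groups did not overlap for any of the 3, and for D630045J12Rik and E330009J07Rik saline sample 1 was the lowest library. Their log2 fold changes were 0.20 ± 0.07, 0.17 ± 0.06 and 0.19 ± 0.07 (SE), with unadjusted edgeR p of 0.0144, 0.0146 and 0.0194. The adjusted p was 0.616 for each. D630045J12Rik was at 0.13 without saline sample 1, still with an unadjusted p under 0.05. The p missed 0.05 for E330009J07Rik without morphine sample 1 (0.15), and for 1700066M21Rik without morphine sample 1 (0.16), morphine sample 3 (0.18) or saline sample 2 (0.18). The next gene by p, A430005L14Rik, also did not overlap between groups, with a log2 fold change of 0.22 ± 0.11 (SE, unadjusted p = 0.0718 in edgeR), and 0.30 with a p under 0.05 without morphine sample 2.

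The 2 protein-coding genes that were lower had small differences. 4930402H24Rik, which starts 89 bp from Atrn, the attractin gene, had 147, 170 and 154 CPM in morphine, against 184, 178 and 172 CPM in saline. Without overlap between groups, the log2 fold change was -0.18 ± 0.06 (SE, unadjusted p = 0.0138 in edgeR), beside 0.08 ± 0.05 for Atrn. The p missed 0.05 without morphine sample 1 (-0.14) or morphine sample 3 (-0.17). 4933427D14Rik, the mouse Kiaa0753 gene of centriolar satellites, had 38, 40.0 and 36.9 CPM in morphine, against 40.2, 44.0 and 44.4 CPM in saline. The log2 fold change was -0.16 ± 0.07 (SE, unadjusted p = 0.0391 in edgeR), and its p missed 0.05 without morphine sample 1 (-0.16), morphine sample 3 (-0.14), saline sample 2 (-0.14) or saline sample 3 (-0.13).

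Most well-described protein-coding genes of the group lay close to 0. 4932438A13Rik, the mouse Kiaa1109 gene whose Drosophila counterpart tweek acts in synaptic vesicle recycling, had 493, 487 and 491 CPM in morphine, against 503, 494 and 518 CPM in saline. Morphine libraries were all below saline libraries, yet the log2 fold change was -0.04 with an interval between -0.15 and 0.06. 2610507B11Rik, the mouse Kiaa0100 gene, had -0.02 with an interval between -0.14 and 0.09. D430041D05Rik had 527, 479 and 526 CPM in morphine, against 380, 506 and 479 CPM in saline, with saline sample 1 well below the rest. This gave a log2 fold change of 0.17 ± 0.09 (SE, unadjusted p = 0.107 in edgeR), 0.05 without saline sample 1, and 0.25 with an unadjusted p under 0.05 without saline sample 2. 2900011O08Rik (Bmerb1) had 0.10 ± 0.05, with an unadjusted p under 0.05 without morphine sample 2 or saline sample 1 (0.13 for each), and 2010300C02Rik (Cracdl) 0.02 ± 0.06. 5330417C22Rik (Elapor1) and 9330182L06Rik (Elapor2), a pair of related membrane proteins of the endosome and lysosome, had 0.03 ± 0.07 and -0.01 ± 0.07. The small proteins included 2410015M20Rik (Micos13), a subunit of the complex that shapes mitochondrial cristae, at -0.10 ± 0.13 and at -0.02 without saline sample 1, and 1810037I17Rik (Aln), which inhibits the calcium pump SERCA, at 0.08 ± 0.09.

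The counts of the group were led by lncRNAs, and the rule that chose the group used these counts. 2900097C17Rik, a lincRNA of a single exon, summed to 213217 counts. Per length, in the authors' FPKM (fragments scaled by gene length and library size), it stood at 372, 340 and 369 in morphine, against 340, 347 and 340 in saline. The level per length was highest in it among the 244 genes, which had a median of 5.55 FPKM and a lowest of 1.28 FPKM over the 6 libraries. On the log2 scale, the fold change was 0.09 ± 0.06 (SE), with an interval between -0.04 and 0.23, and 0.14 with an unadjusted p under 0.05 without morphine sample 2.

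1700020I14Rik summed to 111236 counts and C230004F18Rik to 92344. RefSeq names them Oip5os1 (Cyrano) and Cdr1os. Cyrano is a conserved lncRNA with a site that pairs at length with miR-7 and brings about the decay of that microRNA, and Cdr1os is the transcript from which the circular RNA Cdr1as, rich in miR-7 sites, is made. The sequences of miR-7a and miR-7b are shown from RefSeq (GRCm38.p6), seed in capitals, because these abundant RNAs are known for binding that seed.
mmu-miR-7a-5p: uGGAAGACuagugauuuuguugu
mmu-miR-7b-5p: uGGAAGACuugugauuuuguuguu
Cyrano had 104, 105 and 107 FPKM in morphine, against 121, 105 and 107 FPKM in saline. Saline sample 1 was the highest, and the log2 fold change of the counts was -0.06 with an interval between -0.19 and 0.08. C230004F18Rik had 36.5, 31.1 and 30.3 FPKM in morphine, against 27.0, 33.3 and 29.5 FPKM in saline. The groups overlapped, with a log2 fold change of 0.14 ± 0.09 (SE, unadjusted p = 0.163 in edgeR). It was 0.07 without saline sample 1, 0.05 without morphine sample 1, and 0.23 with an unadjusted p under 0.05 without saline sample 2. Its exons overlap those of Cdr1 on the opposite strand by 1554 bp, and Cdr1 averaged 21 ± 4.95 CPM in morphine and 15.7 ± 2.65 CPM in saline, a log2 fold change of 0.42 (unadjusted p = 0.0338 in edgeR), so reads there cannot be told apart. The circular form was not separated from the linear one in these counts.

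**Figure D5:**
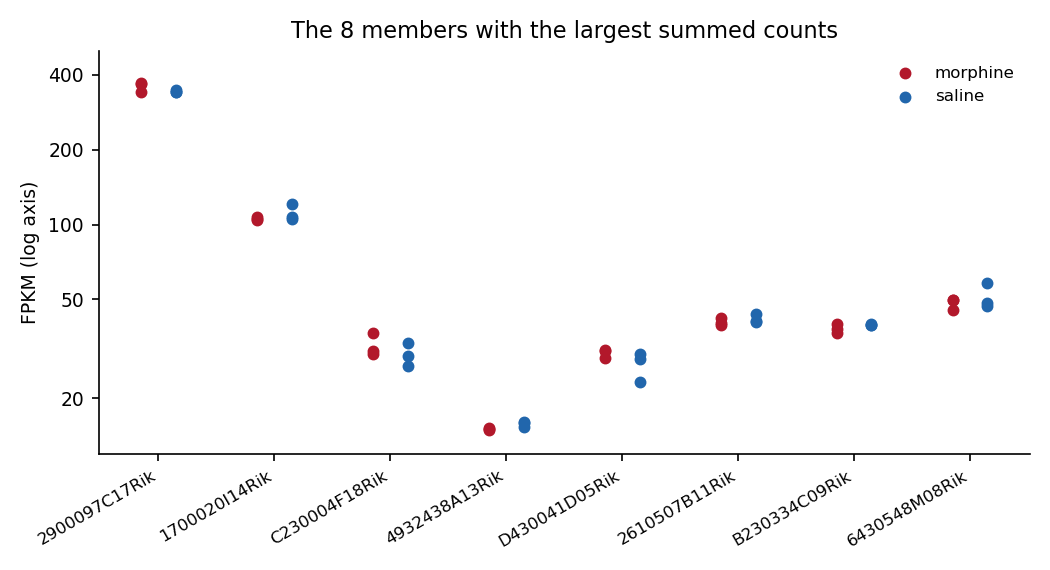
FPKM of the 8 RIKEN-named genes with the largest summed counts, on a log axis, with 3 morphine (red) and 3 saline (blue) libraries each. 2900097C17Rik stands highest at 340 to 372 FPKM, and saline sample 1 lies apart from the other libraries for D430041D05Rik at 23.3 FPKM.

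Other highly counted genes had differences near 0. B230334C09Rik, antisense to Lrrc40, had 359, 325 and 345 CPM in morphine, against 345, 357 and 352 CPM in saline. 6430548M08Rik, the mouse Kiaa0513 gene, had 334, 297 and 336 CPM in morphine, against 380, 322 and 312 CPM in saline. Their log2 fold changes were -0.03 and -0.07, with intervals between -0.15 and 0.08 and between -0.24 and 0.11. 6330403K07Rik, a short protein-coding gene, had 0.05 ± 0.06. In all, 33 of the 244 genes had a summed count of at least 10000.

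Just inside the limit of 1000 counts were A330102I10Rik with 1003, 1700109H08Rik with 1013 and 1700034H15Rik with 1021 counts, and their log2 fold changes were -0.18, -0.26 and -0.07. Just outside were 4833412C15Rik with 997, 0610009B22Rik with 991 and 6430584L05Rik with 977 counts, at -0.43, -0.02 and 0.00. Without saline sample 1, A330102I10Rik was at -0.29, and without morphine sample 2, 1700109H08Rik was at -0.42. The value of 1700034H15Rik was -0.18 without saline sample 1 and -0.01 without saline sample 2. The RIKEN genes that the study names, 4930417H01Rik, 1700110K17Rik, 4930524O07Rik and C130073E24Rik, summed to 160, 320, 599 and 887 counts and so fall outside the group.

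F730043M19Rik, a bidirectional-promoter lncRNA that starts 96 bp from Atxn7l1, showed how far a single library can set a value. It had 16, 16.4 and 15.7 CPM in morphine, against 24.2, 16.4 and 15.1 CPM in saline, with saline sample 1 at 1.47 times the next library. Morphine over saline, the log2 fold change was -0.22 in all libraries and 0.03 without saline sample 1.

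The clone prefixes, which the rule did not use, are given here as a description. Prefixes of 3 testis libraries were borne by 32 of the 244 genes (13.1%), against 37.2% of the RIKEN genes below the limit. Of these 32, 18 are protein-coding and none is TEC, and the median log2 fold change was -0.03. By the unadjusted limit 2 of the 32 were higher and 2 lower. Of all tested genes with a summed count of at least 1000, 3.25% were higher and 4.36% lower. This difference was not tested. The 244 genes bear 82 different prefixes and lie on 20 chromosomes. Median exon length was 3104 bp in TEC, 4878 bp in other non-coding and 4811 bp in protein-coding genes of the group.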

How the data were processed

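The authors deposited 1 table that gives each gene a raw count and an FPKM in each of 3 morphine and 3 saline mPFC libraries. Per the submitters' processing notes, the build was mm10 and the tools included StringTie 1.3.3, HTSeq 0.11.2, HISAT2 2.1.0 and cutadapt 1.9.3, and how strand was handled in the counting is not stated in those notes. The deposited counts are not normalized, and the deposited FPKM values are scaled by gene length and library. Samples were grouped by their labels. The 18970 genes that reached 10 counts in 3 or more of the 6 libraries were normalized by TMM and tested in R 4.3.3 by the quasi-likelihood F test (edgeR 4.0.16, both directions), with the group as the only term and Benjamini-Hochberg adjustment. Intervals are 95% intervals from that fit. The study's own test results were not used. Classes and positions came from GENCODE M21 (GRCm38, the build of mm10), and microRNA hairpins, sequences and symbols from RefSeq (GRCm38.p6).

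Members and lists were chosen with earlier results of these data known. Named were the 8 higher and 8 lower genes of lowest p, the 8 highest counted, the 3 on each side of the limit, the study's own, a list by role, the 3 most set by a single library, and the coding neighbours of non-coding ones. The other genes, among them the hairpin hosts, the chromosome 7 group and most of the rest at an unadjusted p under 0.05, were chosen after their values were seen. Other runs used a replicate block, DESeq2 1.42.0, a filter of 10 counts in every library or none, and RLE size factors. Others used limma 3.58.1 on log2(FPKM + 0.1), with and without a minimum FPKM of 0.1 in 3 libraries, and on log2(FPKM + 1). Other limits on the summed count were tried, and each library was left out in turn. A DESeq2 fit that leaves out saline sample 1 was chosen once the data had been seen. The edgeR step was tested on simulated data. Total counts of 17984153 to 23529592 per library set the precision, and no replicate pair was as close as sampling noise.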

Additional observations from a re-analysis of the deposited data

How the results depend on the processing

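Results are given here under other processing, and for changed counts the cause was not tested unless stated. Counts at the unadjusted limit and counts without overlap stand here without their shares over all genes, so they are not results about the group. With no filter on low counts, 11 genes of the group were higher, 17 TEC genes lower, and 6 of the group and 279 of all genes passed an adjusted p under 0.05 in edgeR. DESeq2 called 16 of all genes, and 1 gene of the group at a fold change over 1.5. With limma on log2(FPKM + 1), 0 genes passed that fold, since the pseudocount shrinks low genes. DESeq2 without saline sample 1, chosen after seeing the data, gave 17 TEC genes lower, 4 of the group and 85 of all genes at an adjusted p under 0.05, and 5 past the fold. Leaving out each library in turn gave 12 to 46 genes lower and 2 to 12 higher, 7 to 22 TEC genes lower, 0 to 10 of the group and 0 to 186 of all genes at an adjusted p under 0.05, and 1 to 7 past the fold. The groups did not overlap in 12 to 30 genes with morphine above and 29 to 67 below, where fewer libraries also make separation easier. The median of the group was -0.05 at a limit of 500 counts and -0.02 at 2000. Replicate numbers did not pair the samples, with correlations of same-numbered deviations of 0.0153, 0.00133 and -0.0211. With the replicate block, 26 genes were lower and 8 higher, 12 TEC genes lower and 0 adjusted. None of the 31 genes with an unadjusted p under 0.05 turned in direction in any alternative. Of the 38 genes named by rule, 8 turned in at least 1, of which F730043M19Rik had the largest value in all libraries. Without saline sample 1, by edgeR and by DESeq2, log2 fold changes were 0.00 for 1700020I14Rik, 0.01 for 2610507B11Rik, 0.03 for 6430548M08Rik, -0.02 for 5330417C22Rik and 0.03 for F730043M19Rik. Over all libraries left out in turn, the ranges were -0.09 to 0.00 for 1700020I14Rik, -0.05 to 0.01 for 2610507B11Rik, -0.12 to 0.03 for 6430548M08Rik, -0.02 to 0.08 for 5330417C22Rik, -0.34 to 0.03 for F730043M19Rik, -0.07 to 0.00 for B230334C09Rik, -0.02 to 0.08 for 2010300C02Rik and -0.06 to 0.04 for 9330182L06Rik. 2010300C02Rik gave -0.00 in each limma fit, and 9330182L06Rik gave 0.00 with DESeq2 and with RLE factors. Precision was lowest in TEC genes, where 13 of 32 had an interval within a fold change of 1.5.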
